A study of Mus musculus with 12 samples.

Results

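Translational efficiency (TE) is the footprint signal of a gene relative to its RNA, and its change on Elp3 knockdown was examined gene by gene in B16 cells, a mouse melanoma line. The change is the log2 difference of ribosome-protected fragments (RPF, or footprints) minus total RNA in shElp3 cells, less the same difference in shControl cells. It was computed for the 11238 of 24421 listed genes that passed a count filter in both fractions (12274 passed in RNA and 11343 in footprints). All cells were grown in DMEM with 10% FBS and had been transduced with lentivirus. The shControl cells carried a non-relevant shRNA and the shElp3 cells carried a single Elp3-specific shRNA, so effects of that hairpin outside its target cannot be told apart from loss of Elp3. Each shRNA has 3 cultures, lettered A, B and C, and the labels pair every footprint library with 1 RNA library, that of the culture with its shRNA and letter. Nothing says that the cultures came from separate transductions, so p-values measure only the spread between these cultures.

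Elp3 is the catalytic subunit of Elongator, which starts the modification of the wobble uridine (U34) in the anticodon of a set of tRNAs. U34 modification helps those tRNAs to read codons of lysine, glutamine and glutamate that end in A. Loss of it is known to slow ribosomes at such codons, so footprint density can rise where ribosomes pause and fall where fewer ribosomes initiate, and TE from footprints does not separate these events.

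Total counts were 7914369 to 16527864 in the 6 RNA libraries and 7619269 to 10998570 in the 6 footprint libraries. The melanocyte genes Dct, Tyrp1, Pmel and Mlana, which define the lineage of this line, were at mean log2 CPM (counts scaled to a common library total) of 11.7, 11.5, 10.1 and 7.13 in RNA. Of 19 listed melanocyte genes 17 passed the filter, among them Oca2 at only 0.48 in RNA. None of 10 epithelial, 2 of 15 macrophage and leukocyte (Cd68 and Lyz2) and 4 of 11 fibroblast markers passed the filter. The cultures lettered A stood apart from the others in TE. Across the 11238 genes the Spearman correlation of TE levels was 0.94 between shControl B and C and 0.93 between shElp3 B and C. It was 0.58 and 0.56 for shControl A with B and C, and 0.70 and 0.76 for shElp3 A with B and C. The 2 cultures lettered A correlated with each other at 0.84. What sets letter A apart was not tested, and values are therefore given by letter.

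No gene passed the TE test. With each footprint library set against the RNA of its own culture, the edgeR quasi-likelihood test called 0 of 11238 genes at an adjusted p under 0.05 (0%), and the smallest adjusted p was 1. An unadjusted p under 0.05 was reached by 184 genes, 65 higher and 119 lower in shElp3. The middle 50% of the TE changes lay between -0.19 and 0.14, with a median of -0.03 and a median SE of 0.30. The 5th and 95th percentiles were -0.48 and 0.43. With the letter added as a block, edgeR called 8 genes (0.0712%), 5 higher and 3 lower, and 989 genes had an unadjusted p under 0.05. With cultures B and C alone it called 14 genes (0.125%), 9 higher and 5 lower, of which 6 were also called with the block. DESeq2 called 1 gene (0.0089%), and limma on the culture differences called 0, with 234 genes at an unadjusted p under 0.05.

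A second measure was whether the 3 shElp3 TE values lay wholly above or below the 3 shControl values. They lay above for 256 genes (2.28%) and below for 544 genes (4.84%). This split depended on the scaling: it was 326 above and 428 below with upper-quartile factors, and 330 and 443 after centring on the median change, settings chosen after seeing the data. The change was above 0 within every letter for 1424 genes (12.7%) and below 0 within every letter for 2127 (18.9%). The 256 genes with groups apart upward had a median RNA change of -0.22 and a median footprint change of 0.30, and the 544 with groups apart downward 0.16 and -0.19. In both sets the 2 fractions moved in opposite directions at the median, where the medians over all tested genes were -0.04 in RNA and -0.01 in footprints. Both sets were picked on footprints relative to RNA in the same libraries, so the selection itself favours opposite directions.

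The TE change of a gene in one letter said little of its change in another. Across genes Pearson's r of the TE change was 0.10 for letters A and B, 0.11 for A and C and 0.05 for B and C. The RNA change of the same genes had r of 0.52, 0.55 and 0.69, and the footprint change 0.38, 0.41 and 0.70. Genes are not independent replicates, and a TE change carries the error of 4 libraries. Its SD across genes was 0.59 in letter A, 0.42 in B and 0.40 in C, and 811, 351 and 271 genes moved by more than 1 on the log2 scale.

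**Figure D1:**
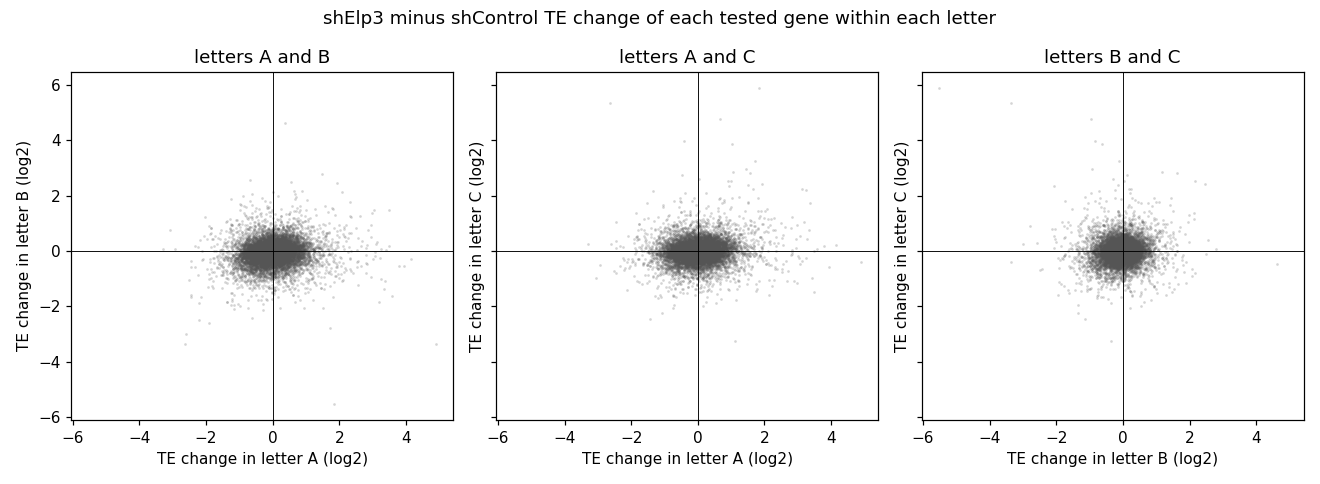
TE change of each of the 11238 tested genes (shElp3 minus shControl, log2) in one letter (horizontal axis) against another (vertical axis), where each point is a gene and the lines mark 0. The 3 clouds are round, with r of 0.10 (A and B), 0.11 (A and C) and 0.05 (B and C), and the spread along letter A is the widest.

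Elp3 itself (chromosome 14, 65530446 to 65593112, mm10) was lower in both fractions by a like amount. Its RNA counts were 1260, 787 and 759 in shControl A, B and C and 688, 297 and 449 in shElp3, and its footprint counts were 725, 967 and 1295 against 389, 587 and 520. The RNA change was -1.08 on the log2 scale and the footprint change -0.93. Its TE was 0.29, 0.55 and 0.87 in the shControl cultures and 0.35, 0.85 and 0.75 in the shElp3 cultures, so that the groups overlap. The TE change was 0.08 (SE 0.24, edgeR adjusted p = 1), and it took the opposite sign without shControl A (-0.06) or without shElp3 B (-0.02).

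Among single genes, the zinc finger gene Zfp575 (chromosome 7, 24583838 to 24587840) had the smallest p. Its TE was -4.03, -3.84 and -3.61 in shControl A, B and C and -2.22, -2.33 and -2.18 in shElp3. All 3 shElp3 values lay more than 1 log2 unit above the highest control value. RNA counts were 1070 to 1220 per control library and 625 to 720 per shElp3 library, while footprint counts were 34, 61 and 87 in control and 61, 135 and 108 in shElp3. The TE change was 1.59 (SE 0.21, unadjusted p = 9.79e-05). It passed with the letter block (adjusted p = 0.00143), with cultures B and C alone (0.00197) and with DESeq2 (0.00039), and its adjusted p ran from 0.00039 to 1 over 18 alternatives at changes of 1.49 to 1.71.

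Bc1, a short noncoding RNA of the cytoplasm that is known as a repressor of translation in neurons, had the largest change among the genes named by rule. Its TE was -2.85, -1.80 and -1.35 in shControl A, B and C and -0.93, 0.65 and 1.06 in shElp3. The change was 2.28 (SE 0.60), close to 2 in letter A (1.92) and larger in B (2.45) and C (2.41). With the letter block it rose with an adjusted p of 3.26e-06, against a range of 5.33e-07 to 1 over 18 alternatives. Its footprint counts were 900, 441 and 514 in control and 1322, 3168 and 2435 in shElp3. Bc1 (chromosome 7, 144914470 to 144914623) has no coding sequence, and whether these fragments were shielded by ribosomes was not tested.

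The other 3 genes that rose with the letter block were Lrrc17, Ap3s1 and Rps15a-ps4. Lrrc17, which codes for a secreted leucine-rich repeat protein, had 20 to 25 footprint counts per control library and 49, 99 and 118 in shElp3. Its RNA counts ran from 1562 to 5581, its TE change was 2.101 (SE 0.50), and its adjusted p with the block was 0.00143 (0.00143 to 1 over the alternatives). Ap3s1, a subunit of the AP-3 adaptor that sorts cargo to lysosomes and melanosomes, had TE of -1.87, -0.87 and -0.56 in control and -0.29, 0.08 and 0.39 in shElp3. Its change was 1.16 (SE 0.38), with an adjusted p of 0.0251 with the block (0.0251 to 1). Rps15a-ps4 is a pseudogene of a ribosomal protein, and reads of its parent gene may be counted there. Its TE groups overlap, and its change of 1.05 (SE 1.05) became 0.18 without shControl A, 0.37 without shElp3 B and 1.999 without shElp3 A.

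Rbmx, an RNA-binding protein of splicing encoded on chromosome X (57383348 to 57393046), had the largest decrease named by rule. Its TE was -0.34, -0.09 and -0.07 in shControl A, B and C and -1.77, -1.23 and -2.54 in shElp3, so that the groups were well apart. Footprint counts were 189, 535 and 501 in control and 51, 68 and 37 in shElp3, and RNA counts were 510, 681 and 564 against 400, 147 and 324. The TE change was -1.69 (SE 0.34). It fell with the letter block (adjusted p = 0.00652) and with cultures B and C alone (0.00868), over a range of 0.00652 to 1.

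Ncapd3 and the histone H4 gene Hist1h4d were the other 2 genes that fell with the block. Ncapd3, a subunit of condensin II, which compacts chromosomes, had TE of -0.33, 0.67 and 0.52 in control and -1.01, -0.42 and -0.85 in shElp3. Its change was -1.06 (SE 0.32), with a blocked adjusted p of 0.0251 (0.0044 to 1 over the alternatives). Hist1h4d (chromosome 13, 23581568 to 23581969) had TE of 1.08, 1.57 and 0.91 in control and -0.28, 0.43 and 0.25 in shElp3. Its change was -1.06 (SE 0.27), with a blocked adjusted p of 0.0129 (0.0129 to 1), and it was not called with cultures B and C alone (0.0733).

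**Figure D2:**
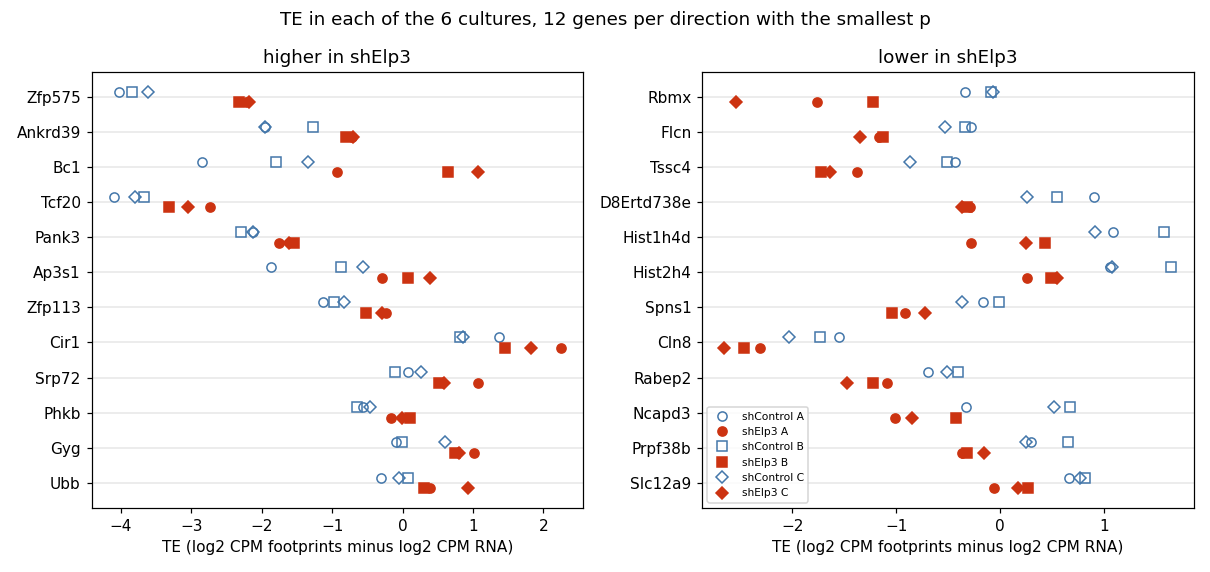
TE (log2 CPM of footprints minus log2 CPM of RNA, horizontal axis) in each of the 6 cultures for the 12 genes with the smallest p in each direction, among those that average 3 or more log2 CPM in each fraction and have no overlap of groups. Open symbols are shControl and filled symbols shElp3, with circles, squares and diamonds for letters A, B and C; Zfp575 runs from -4.03 to -3.61 in control and from -2.33 to -2.18 in shElp3.

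The rest of the 12 genes named in each direction passed no test and are values only. Beside Zfp575, Bc1 and Ap3s1, the genes with higher TE in shElp3 were Ankrd39 (1.00), the corepressor Cir1 (0.83), the transcriptional coregulator Tcf20 (0.83) and glycogenin Gyg (0.69), which primes glycogen. The others were Srp72 (0.65), a subunit of the signal recognition particle, the zinc finger gene Zfp113 (0.63), the ubiquitin gene Ubb (0.63), the pantothenate kinase Pank3 (0.54) and the phosphorylase kinase subunit Phkb (0.53). Of these 12 genes, 9 had an RNA change below 0 and 10 had a footprint change above 0. Picking genes on high footprints relative to RNA in the same libraries favours both directions.

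Among the 12 lower genes Flcn, Spns1 and Cln8 are known to act at the lysosome or on its enzymes, a grouping made after their values were seen. Flcn, folliculin, a regulator of mTORC1 signalling at the lysosome, had TE of -0.28, -0.34 and -0.53 in control and -1.16, -1.13 and -1.35 in shElp3. Its RNA was higher in shElp3 by 1.10 on the log2 scale and its footprints by 0.31, and the TE change was -0.83 (SE 0.19, blocked adjusted p = 0.0606, from 0.0606 to 1 over the alternatives). Spns1, a lysosomal lipid transporter, showed the same order, with an RNA change of 1.03, a footprint change of 0.36 and a TE change of -0.72. Cln8, which helps to carry lysosomal enzymes out of the endoplasmic reticulum, had a TE change of -0.70 (RNA 0.37, footprints -0.30). The endosomal Rabep2 had -0.73 and the transporter Slc12a9 had -0.62. The splicing factors Tssc4 (-0.98) and Prpf38b (-0.68), D8Ertd738e (-0.90) and a further histone H4 gene, Hist2h4 (-0.84), complete the 12.

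Replication-dependent histone genes, which are made in S phase and end in a stem-loop in place of a poly(A) tail, had TE changes below 0 in most members. This held for 32 of 36 tested members (88.9%, against 54.9% of all genes), with a median of -0.40 against -0.03 over all genes. The median was -0.27 in letter A, -0.55 in B and -0.37 in C. The change was below 0 in 20, 32 and 28 of the 36 members in letters A, B and C. Over all genes it was below 0 in 5757, 6500 and 5822 of 11238. For 7 members (19.4%, against 4.84% of all genes) the 3 shElp3 values lay below the 3 control values, and for 0 above. The change was below 0 in every letter for 15 members (41.7%, against 18.9%) and above 0 in every letter for 0. None was called by the paired test and 1, Hist1h4d, with the letter block.

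Both fractions of these genes were lower in shElp3, the footprints by more. The median RNA change of the histone genes was -1.26 and the median footprint change -1.86, and in 34 of 36 the footprint change lay below the RNA change. By class, 9 of 9 H4 genes (median -0.52) and 7 of 7 H2A genes (-0.58) had TE changes below 0. So had 9 of 10 H2B genes (-0.37), 5 of 6 H3 genes (-0.49) and 2 of 4 genes of the linker histone H1 (-0.08). In letter A the medians of H2B (0.05) and H1 (0.25) lay above 0. Those of H4 (-0.58), H2A (-0.57) and H3 (-0.74) lay below it. Hist1h2ae, with TE of -0.65, -0.22 and -0.32 in control and -1.21, -1.26 and -1.06 in shElp3, is an example in which all 3 shElp3 values are lower. The members with groups apart were Hist1h4d, Hist2h4, Hist1h4i, Hist1h2ae, Hist1h2af, Hist1h2be and Hist1h2bg, the last 5 named after their values were seen. Histone genes of one class are nearly identical in sequence, so their counts may be shared and the members are not independent. The median was -0.12 without shControl B, -0.06 without shElp3 A and -0.71 without shControl A.

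Cholesterol synthesis genes act from acetyl-CoA to cholesterol under the control of SREBP2. Of 24 tested members, 17 had a TE change below 0 (70.8%, against 54.9% of all genes). The footprint change lay below the RNA change in 16 of 24. The median TE change of 24 tested members was -0.18, and -0.22, -0.19 and -0.11 in letters A, B and C. The change was below 0 in every letter for 11 members (45.8%, against 18.9%) and above 0 in every letter for 0. Groups were apart downward for 4 members (16.7%, against 4.84%), and no member was called. Sqle, squalene epoxidase, had TE of 1.01, 0.71 and 0.62 in control and 0.03, 0.29 and 0.32 in shElp3, a change of -0.57 (SE 0.20). Mvd, which makes isopentenyl pyrophosphate, had 0.05, 0.39 and 0.34 against -0.25, -0.38 and -0.16, a change of -0.53 (SE 0.22). Sc5d, a sterol desaturase named after its values were seen, had a change of -0.18 with groups apart. The RNA of the list had a median change of -1.08 and the footprints -1.31, so the TE part is the smaller one. The median was -0.02 without shElp3 A and -0.11 with cultures B and C alone.

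**Figure D3:**
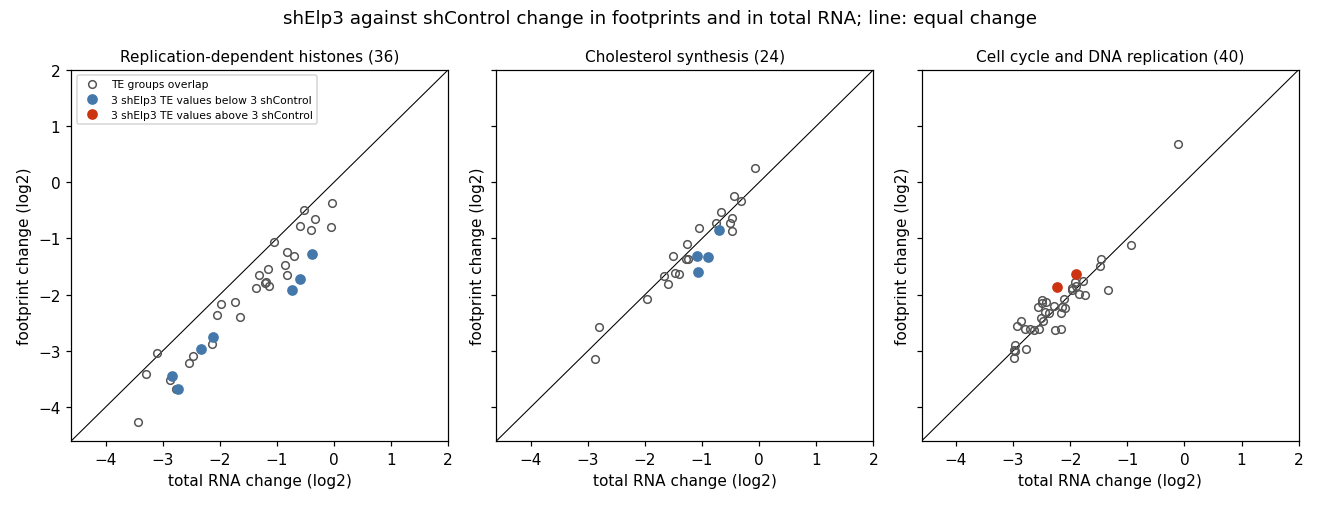
Footprint change (vertical axis, log2) against total RNA change (horizontal axis, log2) of each tested member of 3 gene lists, where the line marks equal change and filled points are members whose TE groups do not overlap. Of 36 histone genes 34 lie under the line, of 24 cholesterol genes 16, and of 40 cell cycle genes 14. Over all genes tested, 54.9% had a TE change below 0.

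Lysosome and autophagy genes had a median TE change of -0.08 over 31 members, with letter medians of -0.11, -0.07 and -0.10. Groups were apart downward for 6 members (19.4%, against 4.84%) and upward for 0. They were the sialidase Neu1 (-0.33), the cholesterol exporter Npc1 (-0.35), the hexosaminidase subunit Hexa (-0.36), the cathepsins Ctsa (-0.27) and Ctsb (-0.17) and the membrane protein Lamp1 (-0.13), of which Hexa, Ctsa, Ctsb and Lamp1 were named after their values were seen. Neu1 had TE of -0.34, -0.43 and -0.44 in control and -0.85, -0.69 and -0.67 in shElp3. Hexa had 0.65, 0.61 and 0.68 against -0.09, 0.48 and 0.49, so that letter A carried most of its change. Npc1 likewise had changes of -0.81, -0.0049 and -0.23 by letter, and its change was -0.10 with cultures B and C alone and -0.17 without shControl A. Neu1 had -0.22 with cultures B and C alone. No member was called, and the list median became 0.06 without shElp3 A.

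Extracellular matrix and adhesion genes had a median TE change of -0.25 over 30 members, of which 27 were below 0 (90%, against 54.9% of all genes). The letters differed, with medians of -0.53 in A, -0.33 in B and -0.04 in C. Groups were apart downward for 3 members (10%, against 4.84% of all genes) and upward for 1 (3.33%, against 2.28%). The 3 were the integrin subunit Itgb5 (-0.54) and the laminin subunits Lama4 (-0.37) and Lamb2 (-0.31), the last 2 named after their values were seen. Mmp2, a gelatinase, went the other way. Its TE was -0.04, -0.80 and -0.30 in control and 0.74, 0.61 and 0.17 in shElp3, a change of 0.90 (SE 0.32), on top of an RNA change of 0.82. Among these genes Col1a1 is also a fibroblast marker. The 4 fibroblast markers tested, Pdgfra, Pdgfrb, Postn and Col1a1, had a median RNA change of 0.76 and a median TE change of -0.29, and their part in the list values was not tested. The list median was -0.02 without shControl A.

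Cell cycle and DNA replication genes had large RNA and footprint changes of like size. The median RNA change of 40 members was -2.28 and the median footprint change -2.22. The median TE change was 0.09, and it was 0.40 in letter A, -0.14 in B and 0.01 in C. Groups were apart upward for 2 members (5%, against 2.28%) and downward for 0. These were the kinetochore motor Cenpe (0.33), with TE of 0.43, 0.63 and 0.46 in control and 0.74, 0.82 and 0.94 in shElp3, and the spindle factor Tpx2 (0.25), named after its values were seen. E2f1, a transcription factor of S phase entry, had a TE change of 0.66 (SE 0.42), with 0.23, 0.95 and 0.75 in the 3 letters. It was called with cultures B and C alone (adjusted p = 0.0294, against 0.0294 to 1 over the alternatives). DNA repair genes had a median of 0.06 over 35 members, with 2 apart upward (5.71%, against 2.28%) and 0 downward (against 4.84%), and -0.05 without shControl A. The list median of the cell cycle genes was -0.17 without shControl A and 0.25 without shElp3 A.

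Genes of the translation machinery had their highest TE changes in letter A. Ribosomal protein mRNAs start with a terminal oligopyrimidine tract, a C followed by further pyrimidines, through which mTORC1 signalling controls their translation. The start regions of 4 of them, from the RefSeq table of GRCm38.p6, are shown because the tract is what this group of mRNAs shares. Capitals mark the tract, and each window holds 15 bases before and 15 from the annotated start.
Fau, chr19:6057932-6057961, + strand: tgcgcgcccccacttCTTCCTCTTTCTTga
Rpl28, chr7:4792950-4792979, + strand: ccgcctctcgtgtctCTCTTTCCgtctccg
Rps18, chr17:33955651-33955680, - strand: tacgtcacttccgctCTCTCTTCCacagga
Rpl15, chr14:18270972-18271001, - strand: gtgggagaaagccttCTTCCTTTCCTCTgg

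Of 79 ribosomal protein genes tested, 70 had a TE change above 0, with a median of 0.21. Over all genes 54.9% had a change below 0, against 11.4% of these 79. Within letter A the median was 0.69, within B 0.06 and within C -0.18, and the change was below 0 in 2, 32 and 55 of them. Fau, which codes for a small-subunit protein fused to a ubiquitin-like one, had 1.03, -0.13 and 0.26 in the 3 letters. Rpl28 had 0.70, 0.18 and 0.06, Rps18 had 0.92, 0.05 and -0.27, and Rpl15 had 0.95, 0.39 and -0.29. The 2 large-subunit members with the smallest p went in opposite directions. Rpl34 had a change of -0.61 (-0.61, -0.72 and -0.45 by letter) and Rpl19 of 0.52 (0.95, 0.36 and 0.26). In the small subunit Rps2 had the smallest p, with a change of 0.47 (0.48, 0.83 and 0.09). Groups were apart upward for 1 member (1.27%, against 2.28% of all genes) and downward for 0 (against 4.84%). That member was Rps15 (0.38), whose change was 1.02, 0.02 and 0.11 by letter and 0.17 without shControl A. Without shControl A the medians were -0.23 for the large and -0.32 for the small subunit, against 0.22 and 0.16 with all cultures.

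A tract was searched only on the strand that reads as the mRNA. It was a C followed by at least 5 bases that are C or T, with the C within 10 bases of the annotated start. It was found in 36 of 72 start regions of ribosomal protein genes (50%), against 19.2% of 32851 start regions in the table. The 33 tested ribosomal protein genes with a tract had a median TE change of 0.70 in letter A, 0.08 in B and -0.17 in C. The 25 in which none was found had 0.73, 0.04 and -0.14, and the letter A values were high in both sets. The search may have missed tracts among these 25, so the sets do not compare genes with and without a tract. Any part of the tract in the letter A values was not tested. Among other tested genes, the 2019 with a tract had a letter A median of -0.02 and the 6582 without one also -0.02. Annotated starts can differ from the starts used in these cells.

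Translation factors, proteasome subunits, mitochondrial ribosomal proteins and respiratory genes also had their highest medians in letter A, with those of B and C nearer to 0. Aminoacyl-tRNA synthetases were highest in letter A too, but in letter B their median lay almost as far below 0. There 21 of 23 members were below 0, against 6500 of 11238 of all genes. Translation factors had a median of 0.12 over 44 members, with 0.44 in A, -0.08 in B and 0.04 in C. Proteasome subunits had 0.39, -0.07 and 0.03 over 31 members, and mitochondrial ribosomal proteins 0.28, -0.04 and 0.01 over 78. Respiratory chain and ATP synthase genes had 0.28, -0.05 and -0.02 over 74 members, and aminoacyl-tRNA synthetases 0.27, -0.23 and 0.04 over 23. Against 2.28% of all genes upward and 4.84% downward, groups were apart upward for 1 proteasome subunit (3.23%) and downward for 0, and for 1 respiratory gene in each direction (1.35%). They were apart upward for 0 and downward for 1 of the synthetases (4.35%), and for none of the translation factors and mitochondrial ribosomal proteins. Without shControl A the medians of these lists were -0.03 for translation factors, -0.20 for the proteasome, -0.16 for mitochondrial ribosomal proteins, -0.25 for respiratory genes and -0.17 for the synthetases. The plot of list medians by letter shows these lists with letter A far to the right of B and C.

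**Figure D4:**
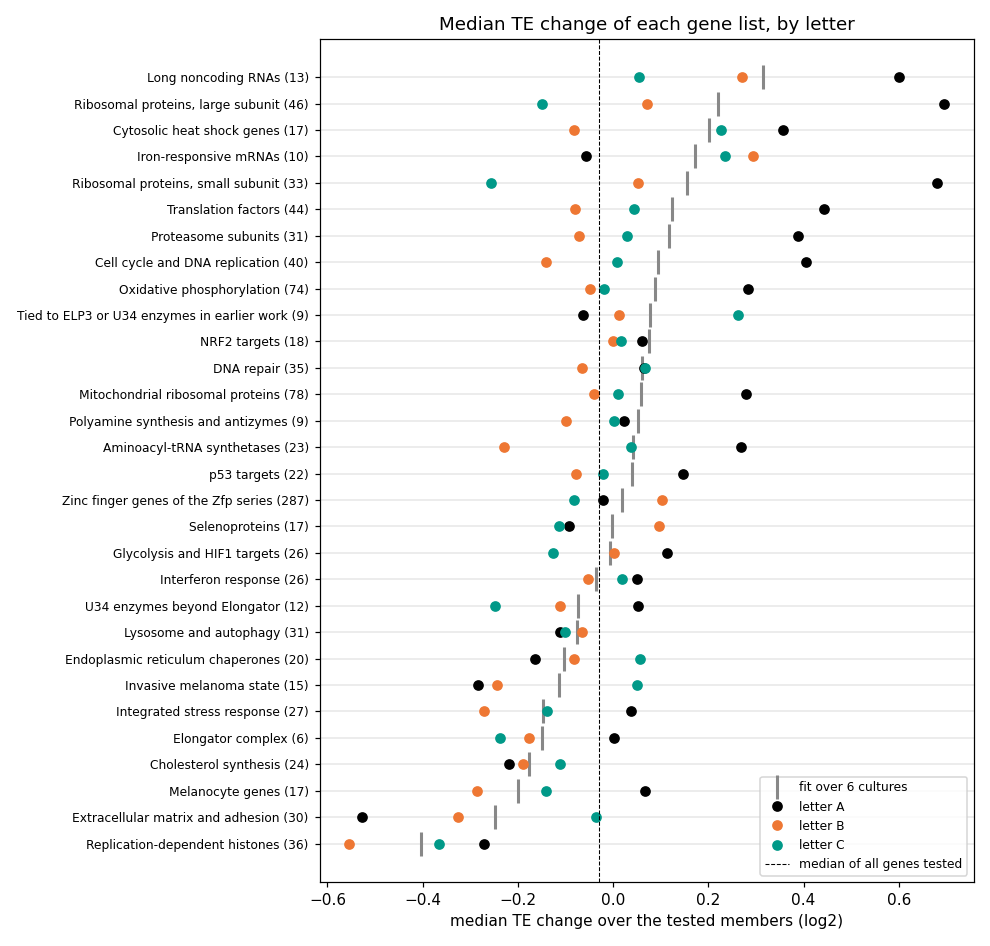
Median TE change (horizontal axis, log2) over the tested members of each gene list (number in brackets), where the grey bar is the fit over 6 cultures, dots are letters A, B and C, and the dashed line is the median of all genes (-0.03). Histones lie left of the dashed line in every letter, while ribosomal proteins of the large subunit run from -0.15 in C to 0.69 in A.

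Elongator subunits had a median TE change of -0.15 over 6 members. Groups were apart downward for 2 of them (33.3%, against 4.84% of all genes) and upward for 0, and the 2 were Elp2 (-0.19) and Ikbkap (-0.19), which codes for the scaffold subunit. Elp6 had -0.32, Elp4 -0.11 and Elp5 -0.06, each with overlapping groups. The 12 U34 enzymes beyond Elongator ran from -0.46 to 1.29 with a median of -0.07, and -0.27 to 0.04 when single cultures were left out. Groups were apart for 1 in each direction (8.33%, against 2.28% of all genes upward and 4.84% downward). Alkbh8, the methyltransferase that completes one branch of the modification, had TE of 0.74, 0.29 and 0.34 in control and 1.19, 0.91 and 0.97 in shElp3. Its change was 0.58 (SE 0.24), at 0.45, 0.62 and 0.63 in the 3 letters, with an RNA change of -0.68 and a footprint change of -0.03. Trmu, the mitochondrial thiouridylase that acts on U34, was lower, at -0.13, 0.13 and 0.33 in control and -0.46, -0.41 and -0.16 in shElp3, a change of -0.46 (SE 0.24). The cytosolic thiouridylase subunits Ctu1 (-0.08) and Ctu2 (-0.06) were near the median. Urm1, the sulfur carrier of that enzyme, was named after its values were seen: its TE was 3.55 in shElp3 B and between -2.09 and -0.66 in the other 5 cultures, and its change was 1.29 (SE 1.39).

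Of the genes that earlier work tied to ELP3 or the U34 enzymes, 9 were tested and had a median TE change of 0.08. Groups were apart downward for 1 (11.1%, against 4.84% of all genes) and upward for 0. That gene was Fgfr3, a growth factor receptor, with TE of -0.49, -0.85 and -1.10 in control and -1.26, -1.53 and -1.77 in shElp3. Its change was -0.71 (SE 0.26), alike in the 3 letters at -0.77, -0.68 and -0.67, and it was not called with the block (adjusted p = 0.332). Atf4, a transcription factor of the integrated stress response, had a change of 0.20 (SE 0.19), with 0.26, 0.08 and 0.26 by letter. Hif1a, the oxygen-regulated transcription factor, had -0.05 (SE 0.19), and Dek, a chromatin protein, 0.21 (SE 0.24). Ldha had 0.28, Apc 0.19, Ccnd1 0.08, Sod2 -0.06 and Sox9 -0.56, the last with an SE of 0.95.

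Stress and redox lists had members on both sides. Integrated stress response genes had a median of -0.15 over 27 members, with 1 apart upward (3.7%, against 2.28%) and 2 downward (7.41%, against 4.84%). The median was -0.02 without shElp3 A and -0.07 without shControl B, shControl C or shElp3 B. Slc7a11, the cystine importer, had TE of 0.28, -0.02 and -0.07 in control and -0.57, -0.18 and -0.25 in shElp3, a change of -0.40 (SE 0.20) against an RNA change of 1.15. Gclc, which starts glutathione synthesis, had a TE change of -0.42 (SE 0.22). Selenoproteins, whose mRNAs are read with a tRNA that Elongator and Alkbh8 act on, had a median of 0.00 over 17 members. Of these Gpx1, glutathione peroxidase 1, had -0.85, -0.80 and -0.82 in control and -1.57, -1.04 and -1.34 in shElp3, a change of -0.49 (SE 0.21). Txnrd2, a mitochondrial thioredoxin reductase named after its values were seen, was apart in the other direction (0.52).

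Long noncoding RNAs had a median change of 0.31 over 13 members, with 0.60, 0.27 and 0.05 in letters A, B and C. Groups were apart downward for 0 (against 4.84% of all genes) and upward for 2 (15.4%, against 2.28%), among them Tug1. The nuclear RNA Malat1, named outside the rule, had TE of -6.48, -6.20 and -6.63 in control and -5.12, -6.20 and -5.45 in shElp3. The 2 letter B values are the same to this precision. Tug1 had -4.93, -5.02 and -4.34 against -4.11, -3.40 and -4.33, with 2 to 42 footprint counts per library. Gas5, a snoRNA host transcript with a terminal oligopyrimidine start, had a change of -0.78 (SE 0.32), at -1.55, -0.88 and 0.12 by letter. Zinc finger genes of the Zfp series, the family of Zfp575, had a median of 0.02 over 287 members. Their groups were apart upward for 15 (5.23%, against 2.28%) and downward for 12 (4.18%, against 4.84%), and Zfp37 (1.20) and Zfp113 were among the higher ones.

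The remaining lists had medians between -0.20 and 0.20. Melanocyte genes had a median of -0.20 over 17 members, with 0.07, -0.29 and -0.14 by letter and 1 apart downward (5.88%, against 4.84%), and its median was 0.00 without shElp3 A. Cytosolic heat shock genes had 0.20 over 17 members, with 0.36, -0.08 and 0.23 by letter and none apart. Iron-responsive mRNAs had 0.17 over 10 members, and glycolysis and HIF1 target genes -0.01 over 26. In the last list Vegfa, the vascular growth factor, had a change of -0.59 (SE 0.26), with overlapping groups and -0.75, -0.66 and -0.36 by letter. The p53 targets had 0.04 over 22 members, NRF2 targets 0.08 over 18, interferon response genes -0.03 over 26 and endoplasmic reticulum chaperones -0.10 over 20. Invasive melanoma state genes had -0.11 over 15 members, and polyamine genes 0.05 over 9. Besides the melanocyte genes (-0.25 to 0.0014), the medians of 7 of these remaining lists changed sign when single cultures were left out. They ran from -0.52 to 0.17 for the invasive state, -0.10 to 0.11 for polyamine genes, -0.10 to 0.08 for glycolysis and HIF1 targets and -0.02 to 0.23 for p53 targets. The range was -0.06 to 0.13 for NRF2 targets, -0.11 to 0.01 for interferon response genes and -0.18 to 0.12 for the chaperones. Lists described further above changed sign too, among them selenoproteins (-0.14 to 0.08) and the Zfp series (-0.01 to 0.12).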

How the data were processed

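The deposited table gives raw read counts by gene symbol for the 12 libraries, with no normalization by the authors. The submitters' processing notes name bcl2fastq, Bowtie, TopHat2 2.1.1, HTSeq and the mouse build mm10, and the labels name the Illumina TruSeq Ribo Profile kit for mammalian cells. The annotation, the strand setting and whether footprints were counted over coding sequence are not stated in the labels or notes used here, so overlapping and antisense genes may share reads, and totals bound counting error only. Gene positions and start regions came from RefSeq tables of GRCm38.p6 (24300 symbols matched).

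Members and gene lists were chosen with earlier results of these data known. Genes passing filterByExpr (minimum count 10) in both fractions were fitted with edgeR 4.0.16 (R 4.3.3; TMM, glmQLFit and glmQLFTest) over all 12 libraries with a term for each of 6 cultures (4 residual degrees of freedom), with Benjamini-Hochberg adjustment over 11238 genes and a threshold of 0.05. RNA and footprint changes came from separate fits of the 6 libraries of a fraction. TE by culture is log2 CPM of footprints minus log2 CPM of RNA, with a prior count of 2. The functions were tested on simulated data.

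Genes were picked for naming by a rule, and not all that it picked are reported here. It took Elp3, the 12 smallest p in each direction (mean log2 CPM at least 3 in both fractions, groups apart, no Gm or Rik symbols) and genes called under an alternative. It also took the 2 smallest p of each list with at least 3 tested members, and all Elongator and ELP3-tied members. Replicates of no group agreed within sampling noise (chi-square per degree of freedom 8.25 or more). As a check of pairing by letter, deviations from the group mean TE correlated across genes at 0.763, 0.460 and 0.487 for same-letter cultures, and at 0.582 and 0.513 for B with C across shRNAs. Cultures lettered A correlated at -0.70 to -0.57 with B and C of the other shRNA. Deviations of the 3 cultures of a group cancel out for each gene. The negative values, and the positive ones among B and C, therefore follow in part from the same-letter value of A. The check sets letter A apart by that same-letter value but does not show that B pairs with B or C with C. Letters were used as a block (2 residual degrees of freedom) beside the results that the block changes. Alternatives were DESeq2 1.42.0, limma 3.58.1, other scalings and filters, B and C only, and leaving out each culture. Protein and codon content were not used here. Not every list member with groups apart is reported here by name. Some genes were named outside this rule, among them Malat1, Ctu1, Ctu2, Fau, Rpl28, Rps18 and Rpl15.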

Additional observations from a re-analysis of the deposited data

How the results depend on the processing

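The count of called genes was 0 in edgeR under other scalings, other count filters, without the culture term, without any single culture, and in limma. It was 8 (5 higher, 3 lower) with the replicate block by letter, 14 (9 higher, 5 lower) with cultures B and C only, and 1 (1 higher, 0 lower) in DESeq2. A block without the culture term, added after seeing the data, called 0 genes, with 179 at an unadjusted p under 0.05. The counts of genes with groups apart, whose scalings were also added later, ran from 250 to 330 higher and from 428 to 544 lower. Elp3 had TE changes of -0.061 to 0.303 when single cultures were left out. Of 100 other named genes, 8 changed sign. Leaving out single cultures gave -0.077 to 0.594 for Apc, -0.313 to 0.139 for Elp5, -0.109 to 0.137 for Hif1a, -0.022 to 0.468 for Ldha, -0.065 to 0.601 for Psmd4, -0.178 to 0.138 for Sod2, -1.264 to 0.271 for Sox9 and -0.091 to 0.844 for Vim. With B and C only Hif1a had 0.14 and Vim -0.15. Of 558 recomputed list medians, 50 moved by more than the spread between letters, 42 of them on leaving out a culture. A planned description of protein and codon content was not run. The spread between cultures limits what could be detected: the median SE of a TE change was 0.30, and 0.18 with the block.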

Other observations

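With cultures B and C alone, 3 genes of RNA processing had lower TE that edgeR called, beside Rbmx, and all were named after their values were seen. Sfpq, a splicing and transcription factor, had TE of 0.64, 0.61 and 0.68 in shControl A, B and C and 0.49, -0.11 and -0.01 in shElp3. Its change was -0.68 in B and C (adjusted p = 0.0367) and -0.16 in letter A. Rbm39, a splicing coactivator, had a change of -0.72 (adjusted p = 0.0374) and was lower in each letter, at -0.72, -0.90 and -0.58. Snrnp70, a protein of the U1 particle, had a change of -0.69 (adjusted p = 0.0396), with -0.11, -0.84 and -0.58 by letter. None was called with all 6 cultures, paired or blocked.

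Higher TE was called in B and C alone for Rpl37rt, BC018473, Rn45s, Zfand6 and E2f1, beside Bc1, Zfp575, Lrrc17 and Ap3s1. Rpl37rt, a retrotransposed copy of a ribosomal protein gene to which reads of the parent may be assigned, had changes of 0.89, 2.17 and 2.53 in letters A, B and C. BC018473 had 0.01, 2.14 and 1.36. Rn45s, the ribosomal RNA precursor, had -0.49, 0.62 and 1.40, so letter A had the opposite sign. Its footprint counts were 2511, 1764 and 1783 in control and 1799, 4164 and 2709 in shElp3. Zfand6 had -0.03, 0.58 and 1.06.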
